A study of Mus musculus with 110 samples.

Results

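The mouse Igh locus on chromosome 12 holds the VH gene segments that are joined to a DJH segment to build an antibody heavy chain. The junctions described here are those of VH segments that lie 500 to 1200 kb into the VH region, counted from its D-proximal end, outside 5 often used positions of the same stretch. They were taken as every junction whose prey position on chromosome 12 lay from 115329805 to 116029804 and more than 100 bp from positions 115501873, 115572761, 115608445, 115810681 and 115918938. All coordinates of prey positions are those of the deposited files, which use a hybrid of mm9 and another Igh sequence. The rule found 29922 junctions, which is 0.831% of the 3602400 junctions of the 98 full libraries and 9.59% of their 312039 VH junctions (positions 114829805 to 117639092). The left-out positions held 8222 further junctions of the interval. No member lay between 100 and 200 bp from a left-out position, and no VH junction lay within 1000 bp of either bound, so the counts did not turn on the exact limits.

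In LAM-HTGTS V(D)J-seq, genomic DNA is amplified from a bait, here the JH4 segment, and each read gives the prey that was joined to it. Bone marrow pro-B cells (BMProB, 6 replicates) were wild-type 129SV cells sorted as B220+CD43+IgM- by flow cytometry, per the labels of all replicates but replicate 1, which carries no sort label. The treatment text of bone marrow replicates 4 to 6 names STI-571 as well, and was taken not to apply to these sorted cells. The other groups were v-Abl transformed pro-B cell lines, all RAG2-deficient with an Emu-Bcl2 transgene, which prolongs survival. They received RAG2 by nucleofection and 3 µM of the Abl kinase inhibitor STI-571 for 4 days, which stops cycling and starts recombination. IAA groups also received 500 µM of the auxin IAA, begun 6 h before STI-571, and NT groups did not. IAA triggers breakdown of a protein with a degron tag in cells that express the plant factor OsTIR1. The lines were the parental line (4 IAA and 4 NT replicates), Ostir_only with an Ostir1 knock-in (4 and 4), CTCFtagging_only with a CTCF-mAID-GFP tag (4 and 4), CTCFdegron (6 and 6), Rad21degron (3 and 3) and Rad21degron_deIGCR1, in which IGCR1 is deleted as well (4 and 4). The labels do not say how many clones stand behind a line or whether replicates were separate cultures, so p-values measure the spread between these samples, which may be technical. Of the libraries titled IAA, 3 of CTCFdegron and 1 of Rad21degron_deIGCR1 have no IAA in their treatment label, and the title was followed.

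RAG binds the JH segments and the nearby D segment, and meets distant VH segments as cohesin extrudes the chromatin past it in a loop. CTCF bound to DNA holds back loop extrusion, and IGCR1, a pair of CTCF sites between the D and VH segments, limits scanning into the VH region. Rad21 is a subunit of cohesin. In normal pro-B cells the whole locus contracts, so that distant VH segments are used as well as those close to the D segments. The interval described here holds further Ighv5 and Ighv2 segments beside members of small VH families, and most of the large Ighv1 family lies beyond it. A VH coding end is followed by a recombination signal sequence (RSS), made of a heptamer, a spacer and a nonamer, at which RAG cuts.

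Replicates held 1263 to 231023 junctions (2 libraries, named a and b, summed where both exist). The low totals were those of the IAA groups of the Rad21 lines, at 1263 to 2668. Members numbered 1254 to 6176 per bone marrow replicate and 348 to 636 per CTCFdegron_IAA replicate, but only 9 to 112 per parental_NT replicate. CTCFtagging_only had 55 to 333 per replicate without IAA and 104 to 481 with it. Single positions are thus well measured mainly in bone marrow and CTCFdegron_IAA, and in part in CTCFtagging_only. PCR reads carry no molecular identifier, so counting limits cover counting error only.

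Almost all members sat at sharp peaks. There were 33 peak positions, with 33 to 3295 junctions each over all libraries, and 29759 members lay within 100 bp of one. The other 163 members, 0.545%, were scattered. Minus-orientation preys made up 0.688% of the members. The prey sequence at all 33 positions matched a sequence of mm9, with 77.7% to 100% identity and a median of 98.0%. The interval belongs to the part of the hybrid genome that is not mm9, since none of its peaks had the offset of 390222 bp to mm9 that 54 of the 86 VH peaks beyond it had. The best match lay in an annotated gene at 25 positions and was clear enough for a symbol at 11. Other positions are named here by their closest mm9 gene, as in "Ighv9-3-like", with the distance from the interval start, and a position whose match has no annotated gene is called unannotated.

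The coding ends of the 6 most used positions, and of 2 that bone marrow used and CTCFdegron_IAA hardly used, show what was joined. Each is the last 60 bases of the consensus prey of the deposited reads, 5′ to 3′ in the coding direction, with the codon for the conserved cysteine at the end of framework 3 in capitals.
Ighv2-9, 123 kb, position 115453076: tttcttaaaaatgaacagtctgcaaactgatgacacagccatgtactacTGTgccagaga
Ighv2-6-8-like, 34 kb, position 115364195: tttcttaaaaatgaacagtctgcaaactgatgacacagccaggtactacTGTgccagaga
Ighv9-3-like, 439 kb, position 115768765: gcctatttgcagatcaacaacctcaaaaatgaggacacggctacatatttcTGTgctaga
Ighv7-1, 140 kb, position 115470146: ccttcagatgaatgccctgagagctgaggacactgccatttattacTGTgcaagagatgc
Ighv11-1-like, 293 kb, position 115623228: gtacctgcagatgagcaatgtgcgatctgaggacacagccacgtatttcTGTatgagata
Ighv5-17, 98 kb, position 115427676: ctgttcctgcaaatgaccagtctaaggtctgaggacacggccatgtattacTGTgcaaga
Ighv3-1-like, 214 kb, position 115543647: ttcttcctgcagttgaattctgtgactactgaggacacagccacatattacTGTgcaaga
unannotated, 259 kb, position 115588829: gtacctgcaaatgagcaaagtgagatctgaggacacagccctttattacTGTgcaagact

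Several members are near copies of each other. Over the last 100 bases of the coding end, 21 of the 528 pairs of positions were at least 90% identical, and 17 positions were in such a pair. The Ighv9-3-like positions at 330 and 347 kb were identical over these bases, as were Ighv9-2-like at 385 kb and Ighv9-3-like at 409 kb. Ighv2-9 and Ighv2-6-8-like at 34 kb shared 98.0% of them, and the unannotated positions at 194 and 259 kb 99.0%. Reads could have been split between such copies by the alignment, so values of single Ighv9-like positions are less certain than their sum.

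The RSS next to the matched end was read from mm9 on the coding strand. Those of 3 positions are shown, with heptamer and nonamer in capitals, because Ighv2-9 was the most used in bone marrow, Ighv11-1-like at 293 kb the most used after CTCF loss, and Ighv7-1 used far more in bone marrow than in the CTCF degron line.
Ighv7-1, mm9 chr12:115134580-115134618, minus strand: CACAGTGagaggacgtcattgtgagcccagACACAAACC
Ighv2-9, mm9 chr12:115117268-115117306, minus strand: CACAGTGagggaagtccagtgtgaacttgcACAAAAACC
Ighv11-1-like, mm9 chr12:115220051-115220089, minus strand: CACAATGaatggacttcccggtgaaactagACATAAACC
The heptamer CACAGTG stood exactly at 24 of the 33 members (72.7%) and at 87 of 118 other VH positions (73.7%), so members held it about as often. The nonamer differed from ACAAAAACC at a median of 1 base in the members and 2 in the others. The spacer was 23 bases long at 22 members and 22 bases long at 10. Several positions share one mm9 match, and mm9 is not the sequence of these cells, so these are descriptions of the matched copies.

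Members took very different shares of recombination in the 13 groups. In bone marrow they made up 6.35% ± 1.61 (SD, n = 6) of all junctions, with a lowest, median and highest replicate of 4.17%, 6.70% and 8.09%. In CTCFdegron_IAA they made up 1.60% ± 0.161 (SD, n = 6), from 1.33% over a median of 1.63% to 1.82%. In CTCFdegron_NT they made up 0.213% ± 0.0609 (SD, n = 6), from 0.127% over 0.215% to 0.282%. The 3 groups did not overlap, and each was above every parental replicate.

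The replicates of the parental line held 0.0680%, 0.0607%, 0.0485% and 0.0400% without IAA. With IAA they held 0.0710%, 0.0474%, 0.0441% and 0.0597%, overlapping that range. Without IAA, parental replicates 1 and 2 were from sequencing run 7 and lay above replicates 3 and 4 from run 11. With IAA, parental replicates 1 and 2 were from run 9, so only replicates 3 and 4 share a run between the groups. Ostir_only was as low, at 0.0685%, 0.0509%, 0.0148% and 0.00454% without IAA and 0.0510%, 0.0480%, 0.0130% and 0.0138% with it. Replicates 1 and 2 of this line were from another sequencing run than replicates 3 and 4 and lay above them in both groups. CTCFtagging_only was higher, at 0.0512%, 0.190%, 0.212% and 0.198% without IAA and 0.0719%, 0.180%, 0.219% and 0.250% with it. Replicate 1 lay far below the other 3 in both groups, near the parental level.

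**Figure D1:**
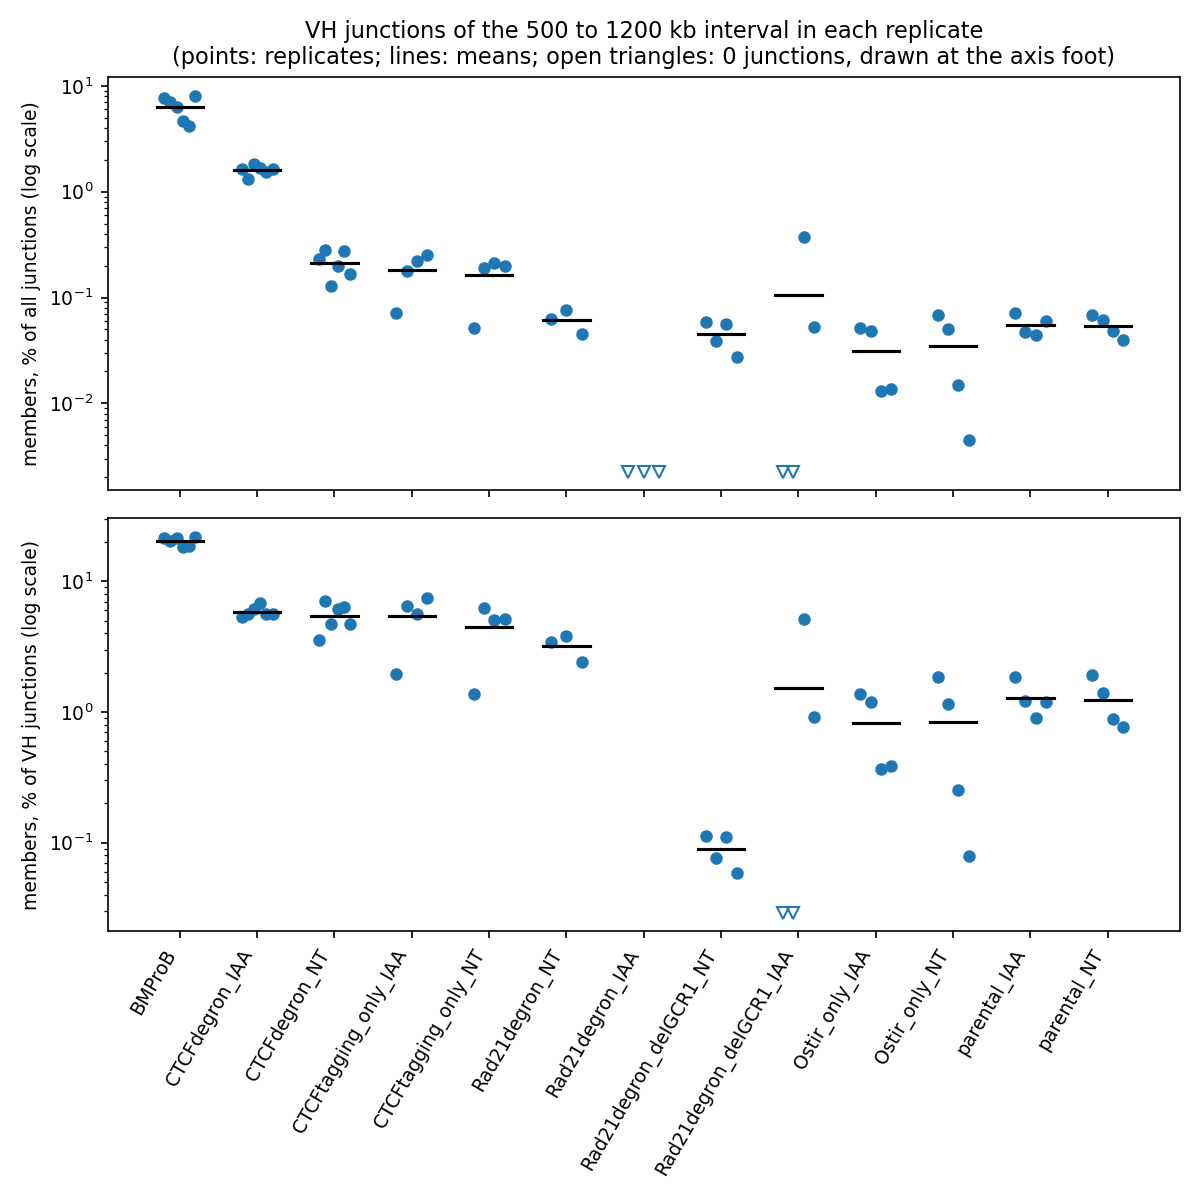
Share of the interval's members among all junctions (top, % on a log axis) and among VH junctions (bottom, % on a log axis) in each replicate of the 13 groups; lines are group means and open triangles are replicates with 0 members. Bone marrow sits at 4.17% to 8.09% of all junctions and CTCFdegron_IAA at 1.33% to 1.82%, but as a share of VH junctions CTCFdegron_IAA and CTCFdegron_NT lie side by side, with means of 5.85% and 5.44%.

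Loss of CTCF from the tagged line asks how CTCF limits scanning into the locus. With IAA the member share of all junctions was 7.52-fold that of the untreated line, a difference of 1.39 percentage points (exact permutation test, two-sided, p = 0.00216, the smallest possible; 0.0114 after Benjamini-Hochberg adjustment over 12 comparisons). All 12 replicates came from 1 sequencing run. In the control lines the replicates with and without IAA overlapped: the exact permutation p was 0.886 in the parental line, 0.80 in Ostir_only and 0.629 in CTCFtagging_only. The lines were also compared directly, through the log2 ratio of IAA to NT within each replicate number, a test added after the values were seen. Same-numbered replicates deviated together in Ostir_only and CTCFtagging_only, but the numbers are only names in CTCFdegron and the parental line. A replicate was most like its own number in 4 of 4 cases in CTCFtagging_only and 2 of 4 in Ostir_only. In Ostir_only, replicates 1 and 2 also came from another run than 3 and 4, so pairing and run cannot be told apart. The mean log2 ratio was 2.96 ± 0.575 (SD, n = 6) in CTCFdegron, with a range of 2.24 to 3.84. It was 0.036 ± 0.401 (SD, n = 4) in the parental line, 0.23 ± 0.928 in Ostir_only and 0.20 ± 0.261 in CTCFtagging_only. CTCFdegron lay above each of them (exact permutation p = 0.00476 for each, the smallest possible, and 0.00476 after adjustment over the 3). Against the parental line it would with any pairing, since the lowest possible CTCFdegron ratio is 2.24 and the highest possible parental ratio 0.83. With any pairing, the highest possible ratio is 3.49 in Ostir_only and 2.29 in CTCFtagging_only, so there the separation rests on the numbering.

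Among VH junctions alone the picture differed. Members made up 5.85% ± 0.518 (SD, n = 6) of VH junctions in CTCFdegron_IAA and 5.44% ± 1.32 (SD, n = 6) in CTCFdegron_NT. The replicates overlapped, at 5.37% to 6.78% against 3.55% to 7.10% (exact permutation p = 0.515; adjusted over 11 comparisons, 0.630). The interval's fraction of VH junctions moved by less than the spread between replicates. With the 5 left-out positions put back, the interval's share of VH junctions was higher with IAA by 2.81 percentage points (exact permutation p = 0.00433).

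The untreated CTCF degron line already differed from the parental line. Its member share was 3.92-fold the parental one (exact permutation p = 0.00952, adjusted 0.0190), and 5.44% against 1.25% ± 0.533 (SD, n = 4) of VH junctions (p = 0.00476, adjusted 0.0105, both by the exact permutation test). CTCFtagging_only_NT had 3.00-fold the parental share (exact permutation p = 0.0857, with replicate 1 inside the parental range; without it, p = 0.0286, the smallest possible). CTCFdegron_NT and CTCFtagging_only_NT overlapped (exact permutation p = 0.290). Rad21degron_NT overlapped parental_NT as a share of all junctions (exact permutation p = 0.543). Of VH junctions it was higher without overlap, at 3.23% against 1.25% (exact permutation p = 0.0286, the smallest possible, adjusted 0.114). These 2 groups shared no sequencing run. All comparisons of this paragraph except CTCFdegron_NT with parental_NT were added after the values were seen. CTCFdegron was sequenced in a run of its own, so line and run cannot be told apart in comparisons of CTCFdegron with other lines.

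Single positions were tested where they had enough junctions. Of the 12 member positions with at least 10 junctions per replicate on average, all 12 rose in CTCFdegron_IAA over CTCFdegron_NT (limma, adjusted p under 0.05 over 77 tested positions), against 79.2% of all positions tested (6.49% fell) and 52 of 54 VH positions. Only 1 of the 12, Ighv9-3-like at 439 kb, reached the minimum in both groups. The other 11 reached it through the treated group and could hardly have come out lower, so their count is a description. With no minimum set, 29 of the 33 were higher and 0 lower.

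Ighv2-6-8-like at 34 kb, an Ighv2 (Q52) family segment, changed most. It held 0.0748%, 0.090% and 0.205% of all junctions (lowest, median, highest replicate) with IAA and 0.0017%, 0.00642% and 0.0128% without, on 184 and 17 junctions. The log2 change was 3.89 (SE 0.44, limma adjusted p = 4.41e-11). Every treated replicate lay above every untreated one, which was a condition of being named as a largest change. Ighv14-3, of the small SM7 family, held 0.115% ± 0.0239 (SD, n = 6) against 0.0107% ± 0.00872, a log2 change of 3.71 (SE 0.46). Ighv9-4, of the VGAM family, held 0.0952% ± 0.0249 against 0.00887% ± 0.00854, a log2 change of 3.61 (SE 0.46).

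Ighv11-1-like at 293 kb was the most used member after CTCF loss. Ighv11 and Ighv12 segments are known from B-1 cell antibodies to phosphatidylcholine. It held 0.182%, 0.271% and 0.560% of all junctions (lowest, median, highest replicate) in CTCFdegron_IAA and 0.0164%, 0.0204% and 0.0417% in CTCFdegron_NT. The log2 change was 3.63 (SE 0.37, limma adjusted p = 1.65e-12). Replicate 1 was the highest of both groups and stood apart in both. This position alone gave 17.9% of the treated group's junctions at member positions. Ighv9-3-like at 409 kb rose too, by a log2 change of 3.10 (SE 0.43).

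The smallest rises were those of a pair of the 6 most used members. Ighv9-3-like at 439 kb, the most used member of the untreated degron line, went from 0.0358% ± 0.0208 (SD, n = 6) to 0.141% ± 0.0377, a log2 change of 2.05 (SE 0.37, limma adjusted p = 2.41e-06). Ighv2-9 held 0.00768%, 0.0158% and 0.0303% untreated and 0.0415%, 0.0483% and 0.0972% treated (lowest, median, highest), a log2 change of 1.74 (SE 0.43, adjusted p = 0.000253). Ighv5-17 lay between, with 0.0116% ± 0.00449 and 0.0966% ± 0.0355 and a log2 change of 2.89 (SE 0.43). Ighv7-1, on 24 and 35 junctions, fell short of the minimum and was not tested here.

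Scaled to VH junctions, the positions parted. Only 3 of the 12 then passed the limma threshold, and the median log2 change over all positions tested was -0.13. Ighv2-6-8-like at 34 kb rose by a log2 change of 1.07 (SE 0.38, adjusted p = 0.0186) and Ighv11-1-like at 293 kb by 0.78 (SE 0.32, adjusted p = 0.0374), while Ighv2-9 fell by 1.06 (SE 0.37, adjusted p = 0.0186). Ighv2-9 and Ighv2-6-8-like at 34 kb, whose coding ends are 98.0% identical as printed above, thus went opposite ways on this scale. Under median-of-ratios scaling 5 of the 12 were called, and the median log2 change over all positions tested was 0.61. The share of all positions called was not computed for either scale.

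**Figure D2:**
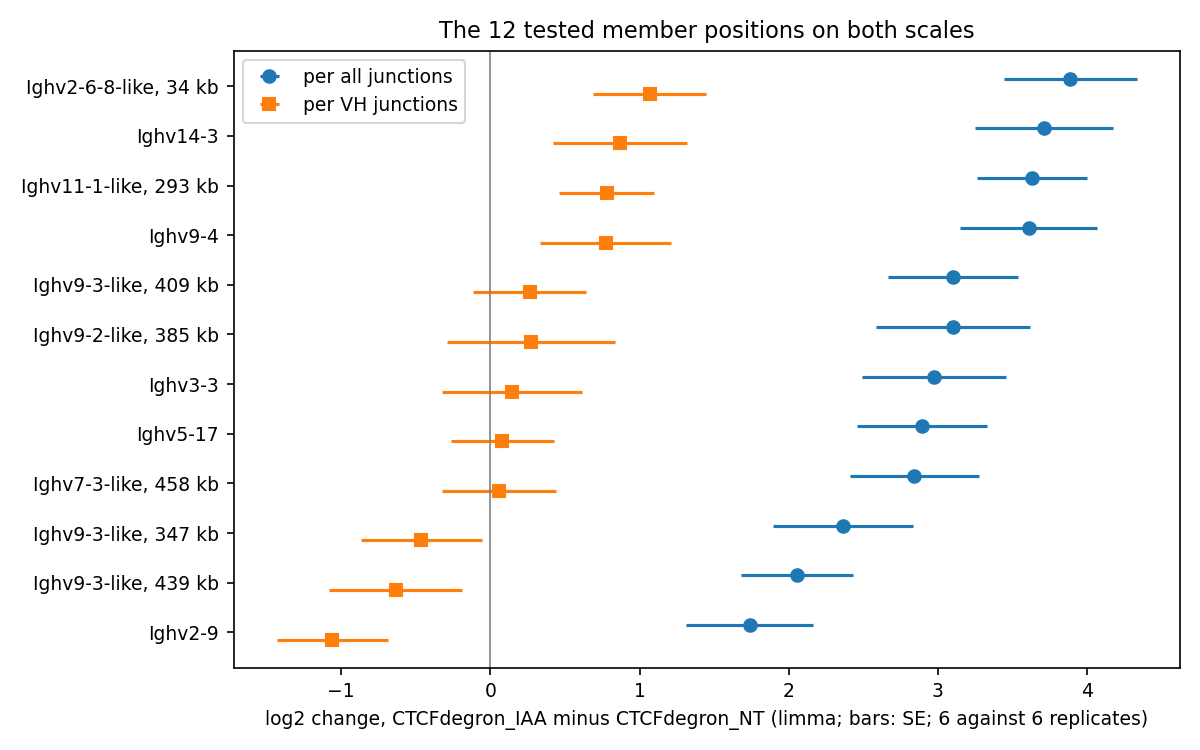
Log2 change with IAA in the CTCF degron line at the 12 tested member positions (x axis, log2; bars are SE), per all junctions (circles) and per VH junctions (squares). All 12 lie above 0 per all junctions, from 1.74 at Ighv2-9 to 3.89 at Ighv2-6-8-like, and they spread around 0 per VH junctions, from -1.06 to 1.07.

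Against the untreated parental line, CTCFdegron_IAA had 29.5 times the member share (difference 1.55 percentage points, exact permutation p = 0.00476, adjusted 0.0114). All 12 tested members were higher (background 79.0% higher and 11.1% lower of 81 positions, and 52 higher and 2 lower of 54 VH positions). All 12 met the minimum through CTCFdegron_IAA alone, so this count is a description; with no minimum, 29 of 33 were higher and 0 lower. Ighv9-3-like at 439 kb held 0.00568%, 0%, 0.0013% and 0.00178% in the 4 parental_NT replicates against 0.0747% to 0.168% after CTCF loss, a log2 change of 5.74 (SE 0.53). Ighv9-3-like at 409 kb had 1 junction in parental_NT against 196, Ighv9-2-like at 385 kb had 1 against 101, and Ighv3-3 had 2 against 106. Their log2 changes were 6.58, 5.66 and 5.53 (SE 0.69, 0.68 and 0.68), which depend on the pseudocount at such low counts. In the untreated degron line only Ighv9-3-like at 439 kb reached the minimum, through that line alone. It was higher than in parental_NT by a log2 change of 3.52 (SE 0.54, limma adjusted p = 3.48e-09). The background was 40.0% higher and 13.3% lower of 45 positions, and 15 higher and 3 lower of 20 VH positions.

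Bone marrow used the interval most. Its member share was 3.97-fold that of CTCFdegron_IAA (difference 4.75 percentage points, exact permutation p = 0.00216, adjusted 0.0114). Members made up 20.4% ± 1.55 (SD, n = 6) of its VH junctions, from 18.3% to 22.0%, against 5.37% to 6.78% in CTCFdegron_IAA (difference 14.5 percentage points, exact permutation p = 0.00216, adjusted 0.0105). The groups did not overlap on either scale. In bone marrow replicates 1 to 3, 82.6% to 87.4% of junctions carry a duplicate mark that no other library has. Leaving marked junctions out, a choice made after seeing the data, raised the difference in share of all junctions to 8.03 and that in share of VH junctions to 15.4 percentage points. Bone marrow and lines were sequenced in different runs, so cell source and run cannot be told apart.

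Of the 27 members tested, 24 were higher in bone marrow than in CTCFdegron_IAA and 0 lower (limma, adjusted p under 0.05), against 69.3% higher and 15.7% lower among all 153 positions tested. Among the 122 VH positions tested, 87 were higher and 19 lower. Of the 27, 14 reached the minimum in both groups and 13 in bone marrow alone, which favours a higher call there. With no minimum, 25 of the 33 were higher and 0 lower. The 33 positions were found over all libraries, and 79.0% of members came from bone marrow, so this count is a description. The share of all positions called was not computed for that setting. Of the 27, the 3 not called were the unannotated position at 559 kb, named after its values were seen, Ighv11-1-like at 293 kb and Ighv3-3. Ighv11-1-like at 293 kb held 0.126%, 0.267% and 0.285% in bone marrow (lowest, median, highest) and 0.182%, 0.271% and 0.560% in CTCFdegron_IAA. These ranges overlapped (log2 change -0.17, SE 0.27, limma adjusted p = 0.571). Ighv3-3 held 0.0394% ± 0.0169 (SD, n = 6) and 0.0580% ± 0.0197, also overlapping (log2 change -0.57, SE 0.37, limma adjusted p = 0.152), but was lower in bone marrow per VH junctions (log2 change -0.73, limma adjusted p = 0.0469). Median-of-ratios scaling made both lower in bone marrow, with log2 changes of -1.31 and -1.72 (limma adjusted p = 3.59e-05 each).

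Among called positions without overlap of replicates, the gap was widest at 5 that CTCFdegron_IAA used little. The unannotated position at 259 kb held 0.0864%, 0.223% and 0.264% in bone marrow on 779 junctions and had 2 junctions in CTCFdegron_IAA, a log2 change of 6.36 (SE 0.50). Ighv3-1-like at 214 kb had 796 junctions against 5 (log2 change 5.88, SE 0.52), Ighv13-2-like at 648 kb 716 against 15 (4.83, SE 0.53) and Ighv3-5 452 against 11 (4.22, SE 0.51). Ighv7-1, of the S107 family and a V segment pseudogene in RefSeq, held 0.412%, 0.554% and 0.714% in bone marrow and 0.0143%, 0.0186% and 0.0257% in CTCFdegron_IAA, a log2 change of 4.77 (SE 0.38, limma adjusted p = 4.74e-14). No replicates overlapped at these 5 positions, which was a condition of their being named here. Ighv7-1 was used in other lines, with 33 junctions in parental_NT, 35 in CTCFtagging_only_NT and 55 in CTCFtagging_only_IAA.

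Ighv2-9 was the most used member in bone marrow. It held 0.446%, 0.740% and 0.975% of all junctions there (lowest, median, highest) and 0.0415% to 0.0972% in CTCFdegron_IAA, a log2 change of 3.76 (SE 0.31, limma adjusted p = 1.01e-13). Ighv5-17 was higher in bone marrow by a log2 change of 2.35 (SE 0.27) and Ighv2-6-8-like at 34 kb by 2.30 (SE 0.29). Ighv9-3-like at 439 kb was higher in bone marrow by 1.62 (SE 0.28), at 409 kb by 1.28 (SE 0.28), and Ighv9-4 by 1.003 (SE 0.30). With median-of-ratios scaling these last 3 were not called.

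**Figure D3:**
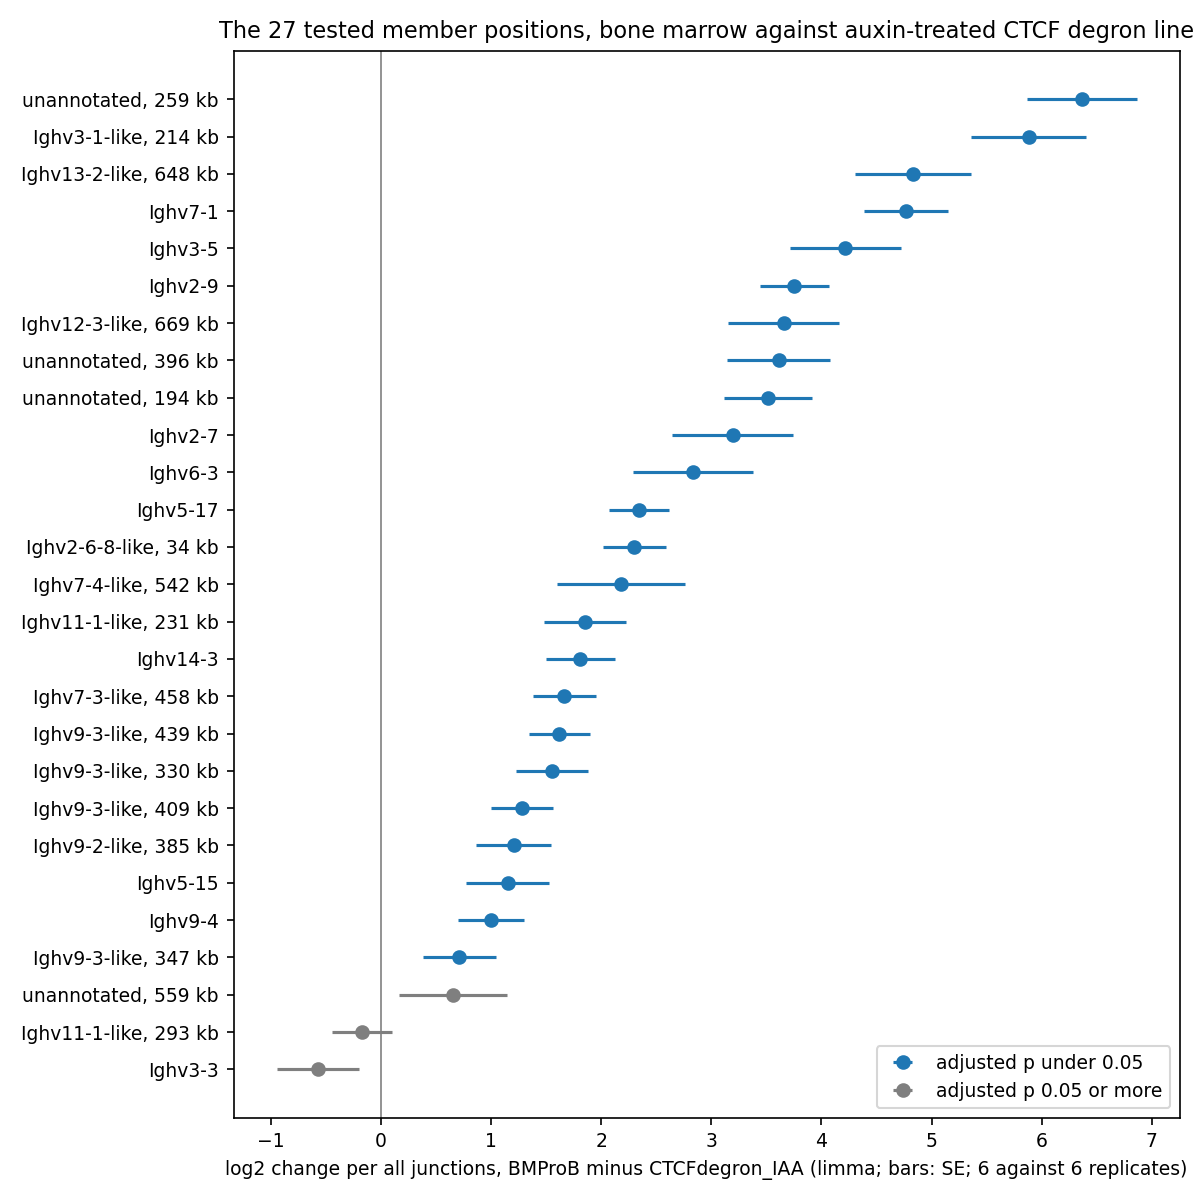
Log2 change per all junctions of bone marrow over CTCFdegron_IAA at the 27 tested member positions (x axis, log2; bars are SE; grey, adjusted p of 0.05 or more). The positions run from -0.57 at Ighv3-3 to 6.36 at the unannotated position at 259 kb, and 24 are higher in bone marrow.

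**Figure D4:**
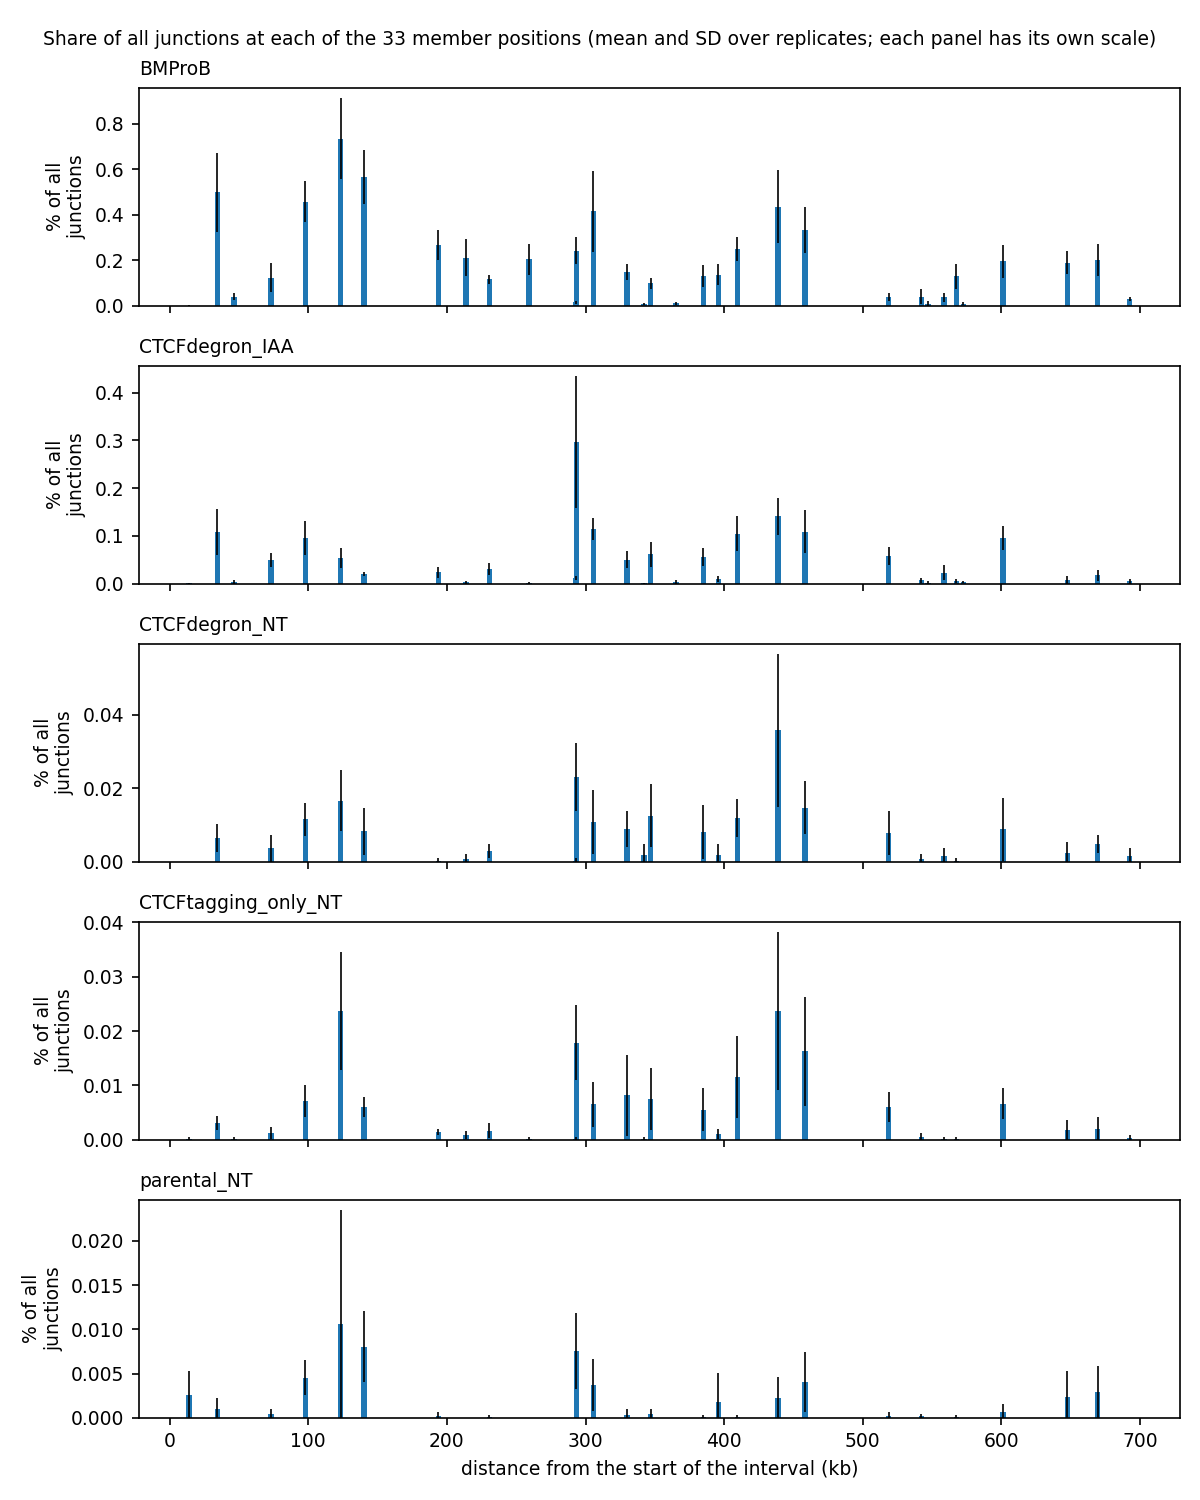
Mean share of all junctions (y axis, %, own scale in each panel; lines are SD) at each of the 33 member positions against distance from the start of the interval (x axis, kb) in 5 groups. Bone marrow peaks at Ighv2-9, near 123 kb, and CTCFdegron_IAA at Ighv11-1-like, near 293 kb.

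The order of use along the interval differed accordingly. The first 250 kb held 48.0% ± 3.10 (SD, n = 6) of bone marrow junctions at member positions and 24.7% ± 3.46 (SD, n = 6) of those in CTCFdegron_IAA, with ranges of 45.5% to 54.2% and 20.5% to 29.9%. The stretch from 250 to 500 kb held 38.2% ± 2.16 and 60.8% ± 1.74. In neither stretch did the replicates overlap. CTCFdegron_NT resembled the treated line, with 25.3% ± 6.39 and 62.0% ± 3.50 (SD, n = 6). CTCFtagging_only_NT did too, with 30.7% ± 7.85 and 58.4% ± 7.99 (SD, n = 4). On far fewer junctions, parental_NT was nearer bone marrow, with 49.8% ± 14.9 and 37.4% ± 5.11 (SD, n = 4). Ostir_only_NT held 59.0% and 32.2%, while Rad21degron_NT held 32.5% and 54.1% and Ostir_only_IAA 36.1% and 62.0%. The last 200 kb held 13.8% in bone marrow, 14.5% in CTCFdegron_IAA and 12.6% in CTCFdegron_NT. These stretches were chosen after the values were seen.

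By family, the 6 Ighv9-like positions gave 32.4% ± 7.21 (SD, n = 6) of the CTCFdegron_IAA junctions at member positions and 40.2% ± 11.2 of those in CTCFdegron_NT, but 19.9% ± 1.25 in bone marrow. The Ighv11-1-like positions at 231 and 293 kb gave 20.7% ± 7.68, 13.2% ± 5.08 and 5.82% ± 0.858 in the same order. The ranges of bone marrow and CTCFdegron_IAA were apart for Ighv11, at 4.85% to 7.08% against 13.9% to 35.4%, and overlapped for Ighv9, at 17.9% to 21.0% against 20% to 39.8%. The 3 Ighv2 positions went the other way, with 20.2% ± 2.26 in bone marrow, 10.6% ± 2.62 in CTCFdegron_IAA and 11.7% ± 4.28 in CTCFdegron_NT. The 3 Ighv7 positions held 15.0% ± 1.14, 8.47% ± 2.35 and 11.4% ± 5.77. In CTCFtagging_only_NT (n = 4) Ighv2 held 18.0%, from 13.3% to 23.6%, and Ighv7 held 14.4%, from 9.77% to 16.7%, both overlapping bone marrow. Ighv9 held 34.9% and Ighv11 14.1% in that line. The 8 unannotated positions held 10.9% ± 0.999, 4.89% ± 1.39 and 3.04% ± 2.19.

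**Figure D5:**
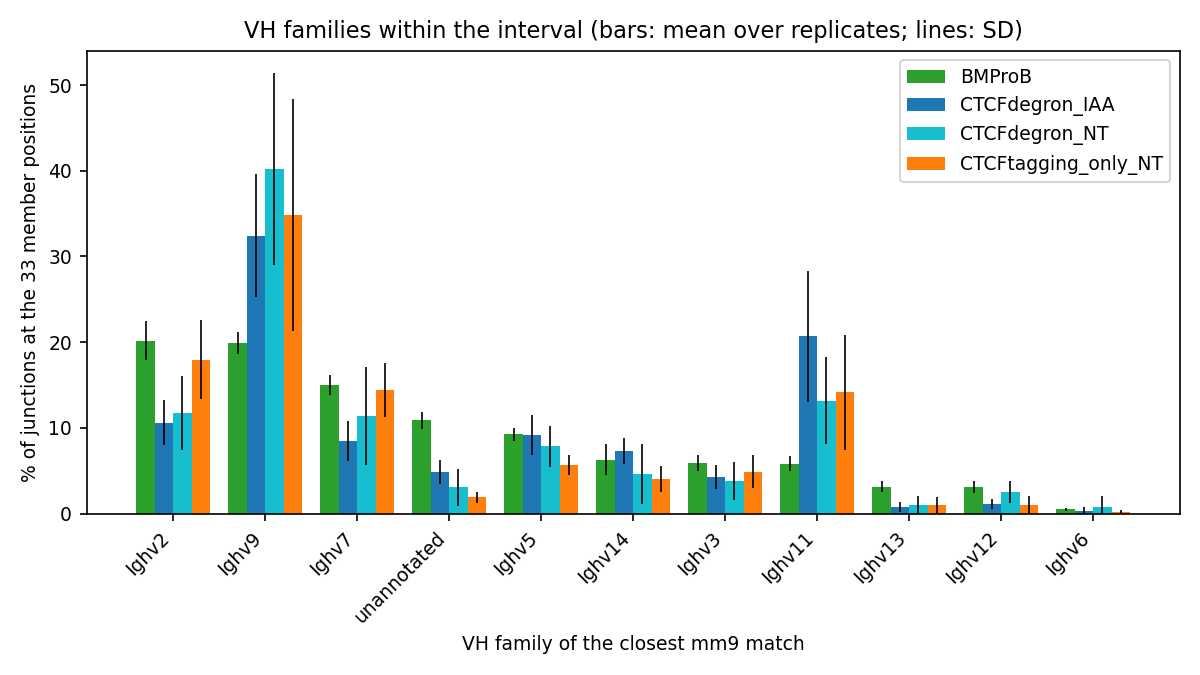
Share of junctions at the 33 member positions by VH family of the closest mm9 match (bars, mean %; lines, SD over 6 replicates, or 4 for CTCFtagging_only_NT). The mean for Ighv2 is 20.2% in bone marrow, 18.0% in CTCFtagging_only_NT and 10.6% in CTCFdegron_IAA, and the mean for Ighv11 is 5.82%, 14.1% and 20.7% in the same order.

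Across the 33 positions, mean shares of CTCFdegron_NT and CTCFtagging_only_NT had a Spearman rho of 0.954, and those of CTCFdegron_IAA and CTCFdegron_NT 0.875. Bone marrow and CTCFdegron_IAA had a rho of 0.646. Positions share libraries and differ in depth between groups, so these values are descriptions. Every one of the 33 had a junction in bone marrow and in CTCFdegron_IAA, 27 had one in CTCFdegron_NT, 23 in parental_NT and 17 in Ostir_only_NT.

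Bone marrow had 117 times the parental_NT share of all junctions (exact permutation p = 0.00476, adjusted 0.0114). There 27 of 27 tested members were higher (background 90.6% higher and 5.03% lower of 159 positions, and 122 higher and 0 lower of 123 VH positions). All 27 met the minimum through bone marrow alone, so this count is a description. The count with no minimum, 32 of 33 higher and 0 lower, is one too, since most members came from bone marrow. Ighv3-1-like at 214 kb and the unannotated position at 259 kb had 0 junctions in parental_NT, and were at least 344-fold and 333-fold higher in bone marrow, set against 3 junctions over the summed group. Ighv2-6-8-like at 34 kb had 1879 junctions against 9 (log2 change 7.68, SE 0.78), Ighv9-3-like at 409 kb 919 against 1 (7.87, SE 0.85), and the unannotated position at 194 kb 1017 against 2 (7.81, SE 0.86). The Ighv5-6-like position at 14 kb, singled out after its values were seen, was the exception. It had 34 junctions in all, 12 of them in parental_NT, 7 in Rad21degron_deIGCR1_NT and 4 in bone marrow, and was not tested.

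Cohesin loss was examined in the Rad21 lines. Rad21degron_NT had 29, 19 and 19 members in its 3 replicates, 0.0622%, 0.0759% and 0.0454% of all junctions. Rad21degron_IAA had 0 members among 5566 junctions, which allows a share of up to 0.0539% over the summed group, inside the untreated range, and of up to 0.120% to 0.238% per replicate, above it. The exact permutation p was 0.1, the smallest that 3 against 3 replicates can give. The IAA group had 5 VH junctions in all, so no share of VH junctions was computed.

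With IGCR1 deleted and cohesin present, members stayed rare while VH junctions as a whole were many. Rad21degron_deIGCR1_NT had 8, 6, 3 and 4 members, which is 0.0592%, 0.0391%, 0.0563% and 0.0277% of all junctions. These overlapped Rad21degron_NT (0.745-fold, exact permutation p = 0.257). Yet 24616 of its 48627 junctions lay in the VH region, against 2136 of 113444 in Rad21degron_NT. As a share of VH junctions members were 0.0893% ± 0.0265 (SD, n = 4) against 3.23% ± 0.742 (SD, n = 3), without overlap (exact permutation p = 0.0286, the smallest possible, and 0.0524 after adjustment). Rad21degron_deIGCR1_NT (b libraries only) and Rad21degron_NT (a and b libraries) shared no sequencing run, so line and run cannot be told apart here. No member position reached the minimum in any comparison within the Rad21 lines. Of the positions tested outside the interval, 4.00% were higher and 64.0% lower with IAA in Rad21degron, 19.0% and 38.1% with IAA in Rad21degron_deIGCR1, and 23.1% and 46.2% in Rad21degron_deIGCR1_NT against Rad21degron_NT.

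The same members in CTCFdegron_IAA were 35.2 times the share of Rad21degron_deIGCR1_NT (exact permutation p = 0.00476, adjusted 0.0114) and 65.5 times as a share of VH junctions. All 12 tested positions were higher in CTCFdegron_IAA (background 80.6% higher and 5.56% lower of 72 positions, and 50 higher and 3 lower of 53 VH positions). All 12 met the minimum through CTCFdegron_IAA alone, so this count is a description. With no minimum, 20 of 33 were higher and 1, Ighv5-6-like at 14 kb, was lower. The median log2 change over all positions tested was then 0.76. Ighv11-1-like at 293 kb had 509 junctions against 0 and was at least 48.1-fold higher, Ighv14-3 had 204 against 0 (at least 18.6-fold), and Ighv5-17 168 against 0 (at least 15.7-fold). The 20 junctions at member positions in Rad21degron_deIGCR1_NT lay mostly in the first 250 kb, with 14 of them.

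Rad21degron_deIGCR1_IAA had 7 members, 6 of them in replicate 3 and all 6 at Ighv2-9. Its mean share of 0.106% ± 0.180 (SD, n = 4) overlapped the untreated group (exact permutation p = 0.943). When identical junctions were counted once, the difference from the untreated group changed from 0.0608 to -0.00565 percentage points.

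In the parental line only Ighv2-9 reached the minimum in the comparison of IAA with no IAA, and it did not pass (log2 change 0.98, SE 0.63, limma adjusted p = 0.240; background 29.2% higher and 2.08% lower of 48 positions). Without parental_NT replicate 1, where it was high, its log2 change was 1.46 (limma adjusted p = 0.0366). In Ostir_only no member was tested, and 2.78% of 36 positions were higher and 0 lower. In CTCFtagging_only 0 of 11 tested members passed, as did 0% of all 89 positions.

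The bases between bait and prey, which hold the D segment and any added nucleotides, were measured for plus-orientation members. The median was 17.0 in every bone marrow replicate and 15.2 ± 0.408 (mean ± SD of replicate medians, n = 6) in CTCFdegron_IAA, without overlap (exact permutation p = 0.00216, adjusted over 5 comparisons 0.0108). Other VH junctions had replicate medians of 17.0 to 18.0 and 14.0 to 16.0 in these groups. CTCFdegron_NT had 15.3 ± 1.03 (SD, n = 6), and it overlapped CTCFdegron_IAA. Parental_NT had 15.1 ± 1.84 and CTCFtagging_only_NT 15.8 ± 1.26 (SD, n = 4 each). Both overlapped bone marrow and did not pass after adjustment (exact permutation p = 0.0333 each, adjusted 0.0556).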

How the data were processed

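Per the labels, the authors aligned the reads with Bowtie2 (version not given in the sources used here) to an mm9 hybrid. The deposited files hold positions and marks per junction read, in no normalised unit (other), with no column of counts. Positions in a and b libraries lay 3 bp to either side of those in bone marrow, and this shift was removed. Peaks of plus-orientation junctions, at least 200 bp apart with at least 20 junctions, gave 155 VH and 86 D positions, matched to mm9 with blastn 2.17.0 and named through RefSeq. A symbol needed 97% identity and a single best position. Shares are means of the a and b shares per replicate; comparisons used two-sided exact permutation tests. Positions were tallied within 100 bp and tested with limma 3.58.1 (voom) in R 4.3.3 on all V and D positions with a mean of at least 10 junctions per replicate, scaled to library totals, pseudocount 0.5, Benjamini-Hochberg adjusted p under 0.05; this was tested on simulated data.

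The members and lists were chosen with earlier results of these data known. Positions named are the 6 with the highest mean of group means and, per comparison, up to 5 with the largest log2 change among those called without overlap. Same-numbered replicates deviated together, with every pair's correlation above 0.1, only in Ostir_only (0.745 to 0.833) and CTCFtagging_only (0.491 to 0.847); elsewhere the numbers are names. The alternatives tried are in the closing section.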

Additional observations from a re-analysis of the deposited data

Results flagged for a closer look

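With 9 of 52 groups tested holding a replicate far from the others, and about 1 in 20 flagged by chance, these values call for a second look. In CTCFtagging_only, replicate 1 held a member share of 0.0512% without IAA, the lowest of 4. It was also lowest at Ighv5-17 (0.00279%, no IAA) and, with IAA, at Ighv9-3-like, 439 kb (0.00830%). In Rad21degron_deIGCR1_IAA replicate 3 held 0.373%, on 6 junctions. Replicate 1 of CTCFdegron was the highest at Ighv11-1-like, 293 kb, both with IAA (0.560%) and without (0.0417%), and with IAA at Ighv2-6-8-like, 34 kb (0.205%). Replicate 3 of CTCFdegron_IAA was the highest at Ighv2-9 (0.0972%), and bone marrow replicate 5 the lowest at Ighv11-1-like, 293 kb (0.126%).

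The effect of IAA on the member share of all junctions differed between lines, by a log2 difference of 2.92 between CTCFdegron and the parental line, 2.73 against Ostir_only and 2.76 against CTCFtagging_only (exact permutation p = 0.00476 each). The separation from Ostir_only and CTCFtagging_only rests on the pairing by replicate number. As a share of VH junctions the same differences were 0.039, -0.47 and -0.17 (exact permutation p = 0.867, 0.457 and 0.419), values that depend on which replicates are paired.

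The lists of off-target junctions, which the rule leaves out, also held rows that would meet it. The 6 lists titled CTCFdegron_IAA, whose genotype label reads WT, held 4 to 14 such rows each, with a mean of 8.67, and the 4 parental_IAA lists 0 or 1, with a mean of 0.25. Over the whole VH region the same lists held 18 to 52 and 0 to 2 rows, so the difference was not particular to the interval. The pooled lists held 71 such rows of 322 VH rows in CTCFdegron_IAA and 2 of 25 in parental_IAA.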

How the results depend on the processing

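Differences in share are in percentage points. The member share of all junctions stayed higher, past the threshold, in CTCFdegron_IAA than in CTCFdegron_NT without any one replicate (1.35 to 1.44), as did bone marrow over CTCFdegron_IAA (4.40 to 5.19). Leaving duplicate-marked junctions out raised bone marrow minus parental_NT from 6.30 to 9.57. Without bone marrow replicates 4 to 6, whose treatment text names STI-571, bone marrow minus CTCFdegron_IAA was 5.46 (15.2 of VH) and minus parental_NT 7.003 (19.8), each past the threshold (exact p = 0.0119 and 0.0286; added after seeing the data). As a share of VH junctions, CTCFdegron_IAA minus CTCFdegron_NT was 2.81 with the left-out positions put back. For Rad21degron_deIGCR1_NT minus Rad21degron_NT, leaving out any replicate (-3.55 to -2.83) or the replicate block (-3.13, exact p = 0.25) ended the unadjusted call; both designs are too small to reach 0.05. The replicate block left the comparisons with 4 shared numbers at the smallest exact p, 0.125: CTCFdegron_IAA minus parental_NT (1.55, or 4.72 of VH), CTCFdegron_NT minus parental_NT (0.156, or 4.15), CTCFdegron_IAA minus Rad21degron_deIGCR1_NT (1.56, or 5.88) and bone marrow minus parental_NT (6.41, or 19.1). It also ended the unadjusted call of Rad21degron_NT minus parental_NT of VH (1.82) and changed no other call of a share. In the lines whose same-numbered replicates deviated together, it left p for all junctions at 0.625 (Ostir_only) and 0.375 (CTCFtagging_only). Of VH junctions CTCFtagging_only was higher with IAA in 4 of 4 pairs (0.931, exact p = 0.125, the smallest possible). Differences that never passed turned sign. Parental IAA minus NT became -0.0105 (-0.0797 of VH) with identical junctions once and -0.0036 (-0.0872) with left-out positions back, and ranged from -0.0039 to 0.0058 (-0.142 to 0.270) without single replicates. Ostir_only became 0.00372 (0.209) within run 11, 0.0445 of VH with left-out positions back, 0.0174 of VH in b libraries only (added after seeing the data), and -0.0133 to 0.00805 (-0.256 to 0.334) without single replicates. CTCFtagging_only ranged from -0.0199 to 0.0535 (-0.102 to 2.09). Rad21degron_deIGCR1 IAA minus NT was -0.00565 with identical junctions once, -0.0246 within run 3 and 0.317 (5.06 of VH) within run 5, and -0.0282 to 0.0962 without single replicates. Rad21degron IAA minus NT was -0.0759 within run 6 and -0.0454 within run 8. Of the comparisons added later, Rad21degron_NT minus parental_NT became -0.0168 with identical junctions once and -0.00055 to 0.0147 without single replicates, and CTCFdegron_NT minus CTCFtagging_only_NT ranged from -0.0707 to 1.56 of VH.

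The share of all positions called was computed only for the main setting. Calls of member positions for CTCFdegron_IAA minus CTCFdegron_NT were 3 on the VH scale, 5 with median-of-ratios scaling, 29 with no minimum tally and 9 to 13 without single replicates. With no minimum they were 29 against parental_NT, 21 against Rad21degron_deIGCR1_NT and 12 for CTCFdegron_NT minus parental_NT. The last ranged from 0 to 1 without single replicates: under the replicate block, and without CTCFdegron_NT replicate 2 or 5, no member reached the minimum (0 tested). Where tested without single replicates, its log2 change was 3.23 to 3.99. Parental IAA minus NT was 0 to 1. Single positions turned sign as follows (log2). For CTCFdegron IAA minus NT, Ighv2-9 was -1.06 on the VH scale and -0.31 with median-of-ratios scaling, and Ighv9-3-like, 439 kb, was -0.63 on the VH scale. For bone marrow minus CTCFdegron_IAA, Ighv9-4 was -0.14 with median-of-ratios scaling and Ighv11-1-like, 293 kb, ran from -0.28 to 0.017 without single replicates. For CTCFtagging_only IAA minus NT, where none passed, Ighv2-9 was 0.038 on the VH scale, Ighv9-3-like, 439 kb, -0.055 and Ighv11-1-like, 293 kb, -0.029 with median-of-ratios scaling, Ighv7-1 -0.034 with identical junctions once, and Ighv9-3-like, 409 kb, 0.031 with no minimum. Without single replicates that comparison ran from -0.039 to 0.90 (Ighv14-3), -0.44 to 0.33 (Ighv2-9), -0.71 to 0.0017 (Ighv5-17), -0.15 to 0.64 (Ighv7-1), -0.092 to 0.35 (Ighv11-1-like, 293 kb), -0.74 to 0.44 (Ighv9-3-like, 409 kb) and -0.35 to 0.71 (439 kb). The cause of these changes was not tested. Low totals limit the IAA groups of the Rad21 lines. Low member counts limit single positions most in the parental, Ostir_only and Rad21 lines, and less in CTCFdegron_NT and CTCFtagging_only.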
